A study of Homo sapiens with 3 samples.

Results

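The miR-34 family was followed through 3 small-RNA libraries of SK-MEL-2, a long-established line of human melanoma cells. Its members were taken by name: the 5p arm of MIR34A (hsa-miR-34a-5p) and both arms of MIR34B (hsa-miR-34b-5p and hsa-miR-34b-3p) and of MIR34C (hsa-miR-34c-5p and hsa-miR-34c-3p). That makes 5 mature miRNAs from 3 hairpins, out of 2588 listed for each library. The series asked how a jet of nonthermal plasma (partly ionised gas that stays cool enough for living cells) acts on melanoma cell growth. Cells were grown in RPMI-1640 with serum and were untreated, exposed to the jet for 3 min, or exposed for 5 min, and RNA was taken on Day 2. There was a single library per group: ratios have no replicate check, no significance test was possible, and each ratio compares libraries rather than conditions. Whether an unexposed gas flow was applied to the control is not given in the sources used here. SK-MEL-2 stands here as a single line.

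The miR-34 family is known as a group of tumour-suppressing miRNAs whose transcription can be raised by DNA damage and other stress. MIR34A has its own host transcript, while MIR34B and MIR34C share one. The mature 5p arms are loaded into Argonaute and repress mRNAs of cell-cycle and survival proteins, such as CDK4, CDK6, MET, MYC and BCL2. MIR34A is expressed in many tissues, while MIR34B and MIR34C are best known from testis and from airway and other ciliated epithelium, where the related miR-449 miRNAs are expressed as well.

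MIR34A lies on chromosome 1 of GRCh38, 9151668 to 9151777 on the minus strand, within an exon of its host transcript MIR34AHG. MIR34B (111512938 to 111513021) and MIR34C (111513439 to 111513515) lie on the plus strand of chromosome 11 with 417 bases between them, both inside the RefSeq long non-coding gene MIR34BHG (111510602 to 111513888). Their arms are cut from the same primary transcript, so they are not independent readouts of that locus.

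Mature sequences for 4 of the 5 members were matched in RefSeq (GRCh38.p14). They are shown with the 5p arms of miR-449 and miR-2682, because the seed, bases 2 to 8 in capitals, is the part of a miRNA that mainly sets its targets, and these carry the seed of a family member.
miR-34a-5p: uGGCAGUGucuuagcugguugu
miR-449a: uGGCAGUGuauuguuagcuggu
miR-449b-5p: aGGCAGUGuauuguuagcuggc
miR-34b-5p: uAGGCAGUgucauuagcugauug
miR-449c-5p: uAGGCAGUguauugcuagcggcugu
miR-2682-5p: cAGGCAGUgacuguucagacguc
miR-34b-3p: cAAUCACUaacuccacugccau
miR-34c-3p: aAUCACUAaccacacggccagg
The first 3 share the seed GGCAGUG. In the next 3 the same stretch starts 1 base later, which makes the seed AGGCAGU. The 3p arms of MIR34B and MIR34C share a run of 10 bases, from base 2 of the miR-34b-3p sequence and base 1 of the miR-34c-3p sequence, and so their seeds also differ by a shift of 1 base. miR-34a-5p shared a run of at most 9 bases with any other sequence shown, whereas miR-449a and miR-449b-5p shared 20 bases in a row, so the separate counts of these last are uncertain. The unmatched member was miR-34c-5p, so its seed and the bases it shares with other miRNAs were not compared here.

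The MIR34B hairpin (chr11:111512938-111513021, plus strand, 84 bases) is given because most of its few counts came from the 3p arm. Its arms are in capitals, with miR-34b-5p at bases 13 to 35 and miR-34b-3p at bases 50 to 71.
MIR34B: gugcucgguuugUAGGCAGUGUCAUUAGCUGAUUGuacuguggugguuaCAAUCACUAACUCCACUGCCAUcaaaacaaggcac

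The values were whole-number read counts per mature miRNA. The control held 1045482 counts, the 3 min library 966943 and the 5 min library 615645, and 639, 663 and 708 miRNAs in that order were seen at least once. The number of miRNAs seen was thus highest in the shallowest library. Of the melanocyte markers, miR-204-5p had 2608, 2535 and 1257 counts and miR-211-5p 128, 97 and 65. miR-506-3p, miR-508-3p, miR-509-3p and miR-514a-3p of the X-linked cluster had none, where a limit of 3 counts is 2.87, 3.13 and 4.83 scaled CPM. The 6 markers together were lower after 5 min than in control, with a log2 ratio of -0.30 (exact 95% counting interval -0.39 to -0.20). Nearly all of this sum was miR-204-5p. For miR-211-5p alone the log2 ratio was -0.22, with an interval that includes 0 (-0.68 to 0.22).

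The family was scarce in SK-MEL-2 and was carried by miR-34c-5p. Together the 5 members had 83 control counts, 128 at 3 min and 111 at 5 min, or 0.00794%, 0.0132% and 0.0180% of the library. All 5 were seen in at least 1 library, and 4 were seen in each of the 3. Only miR-34c-5p reached the mean of 20 counts required for a comparison across miRNAs, which 231 of the 2588 met. The other 4 fell short of it and are given by their counts and counting intervals. Levels below are in CPM, counts as a share of the library in parts per 1000000, scaled by TMM, a method that sets libraries to a common level from the bulk of the miRNAs, each with an exact Poisson 95% interval that covers counting error only.

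miR-34c-5p, the 5p arm of MIR34C and a repressor of cell-cycle mRNAs such as CDK4 and MYC, had 59 control counts, 95 at 3 min and 90 at 5 min. Scaled, these were 56.4 CPM (42.9 to 72.8) for control cells, 99.1 (80.2 to 121) after 3 min and 145 (117 to 178) after 5 min. The level was in the order of exposure. In RNA from a whole culture, more cells with the miRNA and more of it per cell cannot be told apart. The control interval did not overlap that of either plasma library, while the upper end after 3 min lay just above the lower end after 5 min. How many other miRNAs have intervals separated in this way was not counted, so the separation is not shown to be particular to miR-34c-5p. Of miRNAs with a mean of 20 to under 200 counts, 13.9% were at least 2-fold above control after 5 min, a different measure. Among the miRNAs with a count, miR-34c-5p ranked 165, 137 and 126 by abundance in the same order of libraries.

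miR-34a-5p, the most studied tumour-suppressing member of the family, had 17 control counts, 21 at 3 min and 18 at 5 min. Its scaled levels were 16.3 CPM (9.47 to 26.0) in the control, 21.9 (13.6 to 33.5) after 3 min and 29.0 (17.2 to 45.8) after 5 min. The point values follow the order of exposure, but the 3 intervals overlap one another. Its opposite arm, miR-34a-3p, is no member and had 0 counts in each library.

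The MIR34B arms and the 3p arm of MIR34C were close to the limit of detection. miR-34b-3p had 5 control counts, 9 at 3 min and 2 at 5 min, or 4.78 (1.55 to 11.2), 9.39 (4.29 to 17.8) and 3.22 (0.390 to 11.6) scaled CPM. These intervals overlap, and the highest of the 3 values was after 3 min. miR-34b-5p had 1 count after 3 min and 0 in the other libraries. A limit of 3 counts is 2.87 scaled CPM in the control and 4.83 after 5 min. The upper ends of the exact Poisson intervals there are 3.53 and 5.94. miR-34c-3p had 2, 2 and 1 counts, at or under the limit of 3 counts in each library, so no ratio was formed for either of these arms.

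**Figure D1:**
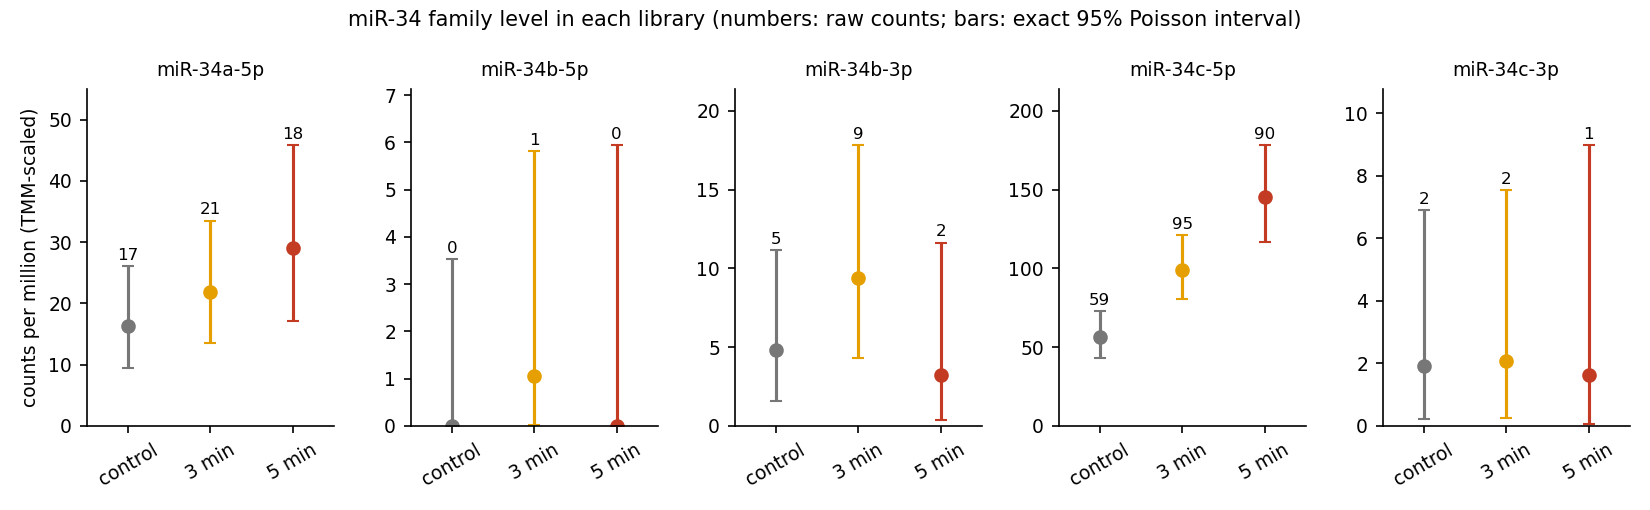
TMM-scaled CPM (y axis, a separate linear scale for each miRNA) of the 5 miR-34 members in the control, 3 min and 5 min plasma libraries (x axis). Points are single libraries, bars are exact 95% Poisson intervals and the printed numbers are raw counts. The control interval of miR-34c-5p, around 56.4, does not overlap those of the plasma libraries, for counting error only. How many other miRNAs separate in this way was not counted. The intervals of each other member overlap.

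The shares of the arms of each hairpin were set side by side. miR-34c-5p made up 59 of the 61 counts of the MIR34C arms in the control, 95 of 97 after 3 min and 90 of 91 after 5 min, or 96.7% (exact binomial 95% interval 88.7 to 99.6), 97.9% (92.7 to 99.7) and 98.9% (94.0 to 99.97). For MIR34B, miR-34b-3p made up 5 of 5 counts in the control, 9 of 10 after 3 min and 2 of 2 after 5 min, with intervals of 47.8 to 100%, 55.5 to 99.7% and 15.8 to 100%. The control and 5 min intervals include an equal share of the arms, so only the 3 min library sets the 3p arm above the 5p arm. Adapter ligation favours some RNA ends, so these shares are not molar amounts, but the share of an arm can be set side by side between libraries, and for both hairpins the intervals of the 3 libraries overlapped.

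Shares of the loci within the family were also set side by side. miR-34a-5p held 20.5% (12.4 to 30.8) of the family's counts in the control, 16.4% (10.5 to 24.0) after 3 min and 16.2% (9.90 to 24.4) after 5 min. miR-34c-5p held 71.1% (60.1 to 80.5), 74.2% (65.7 to 81.5) and 81.1% (72.5 to 87.9). The MIR34B arms had 5 of the 66 counts of the MIR34B and MIR34C locus in the control (7.58%, 2.51 to 16.8), 10 of 107 after 3 min (9.35%, 4.57 to 16.5) and 2 of 93 after 5 min (2.15%, 0.262 to 7.55). All of these intervals overlap between libraries.

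The shorter exposure was set against control first. miR-34c-5p was 1.76-fold higher (exact Clopper-Pearson 95% counting interval 1.26 to 2.47), with 95 counts after 3 min against 59 in the control, the 9th highest of the 231 measured ratios. It passed a 1.5-fold difference but not the 2-fold rule used here for a call. Of the 231 miRNAs, 6.93% lay 1.5-fold or more above control and 2.16% lay 2-fold or more above it, while 5.19% and 0.866% lay as far below it. Among the 122 with a mean of 20 to under 200 counts, where counting error is larger, the shares were 10.7% and 4.1%. The ratio of miR-34a-5p was 1.35 (0.677 to 2.72), on 21 counts after 3 min against 17 in the control, and that of miR-34b-3p was 1.96 (0.591 to 7.46), on 9 against 5. Both intervals include 1. The summed family was 1.68-fold higher (1.27 to 2.25), and the summed MIR34B and MIR34C arms 1.77-fold (1.29 to 2.44).

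The longer exposure was set against the same control library. miR-34c-5p was 2.57-fold higher (1.83 to 3.63), with 90 counts in the 5 min library against 59 in the deeper control, and ranked 17th from the highest of 231. It was the single member measured and passed the 2-fold rule, which 9.52% of all measured miRNAs passed in this direction, and 13.9% of those with a mean of 20 to under 200 counts. At 1.5-fold the shares on the higher side were 17.3% and 23%, and on the lower side 3.46% of all measured miRNAs passed 2-fold and 11.7% passed 1.5-fold. Its log2 ratio of 1.36 stood beside a median of 0.09 and a 90th percentile of 1.33 in that range of abundance. The summed family was 2.25-fold higher (1.68 to 3.03), on 111 counts against 83, and the summed MIR34B and MIR34C arms 2.37-fold (1.71 to 3.31), on 93 against 66. With DESeq2 size factors over all listed miRNAs, the family sum was 1.95-fold higher, short of the rule, while the ratio of miR-34c-5p was 2.22.

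miR-34a-5p had a ratio of 1.78 after 5 min against control, with an interval of 0.868 to 3.68 that includes 1. Scarce miRNAs as a whole also stood higher. The 2357 miRNAs with a mean under 20 counts summed to 1819 counts after 5 min against 1762 in the control, 1.74-fold higher (1.63 to 1.86) once scaled, and after 3 min against control they were 1.08-fold higher (1.01 to 1.15). Of the 118 with a mean of 5 to under 20 counts, 46.6% were at least 1.5-fold higher after 5 min, a range of abundance chosen after the data were seen. The miR-34a-5p ratio at this exposure lies near that of scarce miRNAs in general, and the part of that shift in the values of the scarce members was not tested. miR-34b-3p had 2 counts after 5 min against 5 in the control, a ratio of 0.674 (0.0642 to 4.12).

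**Figure D2:**
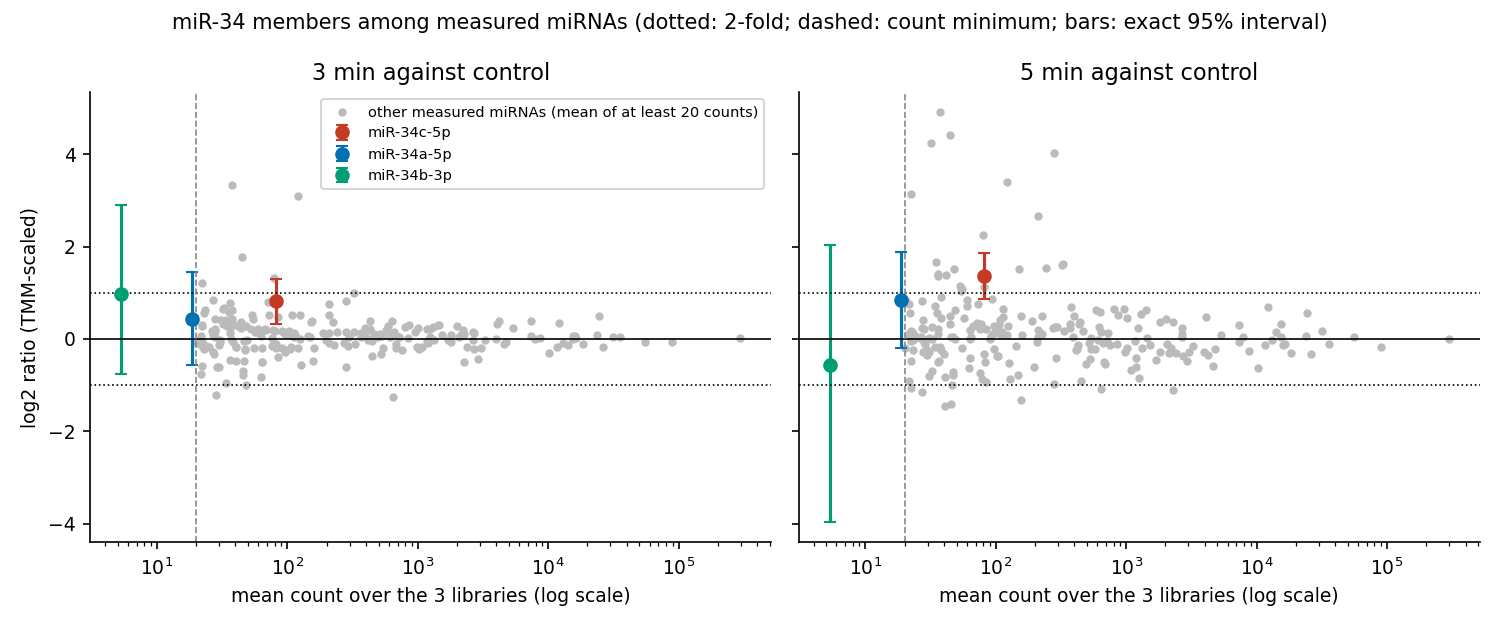
Log2 ratio of 3 min plasma to control (left) and of 5 min plasma to control (right) against the mean count over the 3 libraries on a log axis. Grey points are measured miRNAs, coloured points are miR-34c-5p, miR-34a-5p and miR-34b-3p with exact 95% counting intervals, dotted lines mark 2-fold and the dashed line the minimum of 20 counts. miR-34c-5p lies at 0.81 after 3 min and at 1.36 after 5 min. The 90th percentiles of miRNAs with a mean of 20 to under 200 counts are 0.62 and 1.33. The intervals of miR-34a-5p and miR-34b-3p cross 0.

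The exposures were also set against each other. miR-34c-5p was 1.46-fold higher after 5 min (1.08 to 1.97), on 90 counts against 95 in the deeper 3 min library, and ranked 34th from the highest of 231. It met neither the 2-fold rule, which 6.49% of measured miRNAs met on the higher side, nor 1.5-fold, which 13% met. The ratio of miR-34a-5p was 1.32 (0.665 to 2.61) and that of miR-34b-3p 0.343 (0.0361 to 1.66), on 2 counts after 5 min against 9 after 3 min. For the summed family it was 1.34 (1.03 to 1.74). The intervals of miR-34c-5p and of the summed family extended below 1 with DESeq2 size factors over all listed miRNAs, and that of the summed family also with TMM over all listed miRNAs. By comparison, the sum of scarce miRNAs was 1.61-fold higher (1.51 to 1.72).

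Whether the ratio of miR-34c-5p differed from that of miR-34a-5p was read from the ratio of their ratios, which needs no scaling. Each ratio of ratios is given as a conditional estimate, which can differ slightly from the plain quotient. For miR-34c-5p over miR-34a-5p it was 1.44 for 5 min against control (exact conditional 95% interval 0.640 to 3.22). For 3 min against control it was 1.30 (0.592 to 2.83). A difference between the 2 miRNAs was not detectable at this depth. Against miR-34b-3p, cut from the same transcript, the ratio of ratios was 3.78 for 5 min against control (0.595 to 40.9), on 2 counts of miR-34b-3p after 5 min, and 0.895 for 3 min against control (0.224 to 3.15), so both intervals include 1.

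The miR-449 miRNAs, hosted in an intron of CDC20B on chromosome 5, carry the seed of miR-34a-5p (miR-449a and miR-449b-5p) or of miR-34b-5p (miR-449c-5p), as printed above. miR-449a had 33 control counts, 45 at 3 min and 29 at 5 min, a ratio of 1.49 (0.929 to 2.41) for 3 min and 1.48 (0.867 to 2.52) for 5 min against control. miR-449b-5p had 6, 9 and 2 counts, miR-449c-5p 1, 1 and 2, and miR-2682-5p none. Both miR-449a intervals include 1. Summed over the 5p arms of miR-34, miR-449 and miR-2682 there were 116, 172 and 141 counts, of which miR-34c-5p made up 50.9% (41.4 to 60.3) in the control, 55.2% (47.5 to 62.8) after 3 min and 63.8% (55.3 to 71.7) after 5 min. This combined sum was 1.62-fold higher after 3 min than in control (1.27 to 2.07) and 2.05-fold higher after 5 min (1.59 to 2.64). The ratio of ratios of miR-34c-5p over miR-449a was 1.73 for 5 min against control (0.914 to 3.30), an interval that includes 1.

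**Figure D3:**
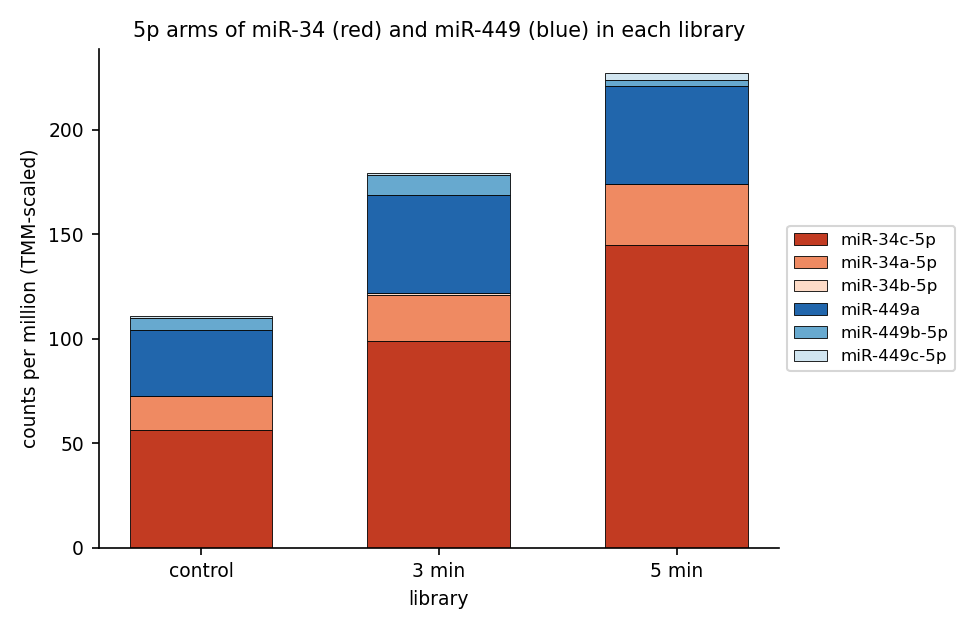
TMM-scaled CPM (y axis, from 0) of the 5p arms of miR-34 (red shades) and miR-449 (blue shades), stacked for the control, 3 min and 5 min libraries. miR-34c-5p is the largest block in each library, at 56.4, 99.1 and 145, and miR-449a the next.

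Markers of epithelial cells, some of which express MIR34B and MIR34C, were counted in the same libraries. Of 7 markers, 6 had a count and none was measured. They summed to 16 control counts, 29 at 3 min and 44 at 5 min. This sum was 1.98-fold higher after 3 min than in control (1.04 to 3.90) and 4.63-fold higher after 5 min (2.56 to 8.80). All miRNAs with a mean under 20 counts, these markers included, summed 1.08-fold and 1.74-fold higher in the same order. Most marker counts came from miR-200c-3p, with 6, 8 and 17 counts, and from miR-200b-3p, with 6, 13 and 20. miR-205-5p had 0 counts in each library. Of the rest, miR-203a-3p had 1, 5 and 4 counts. The counts of miR-200a-3p (2, 2 and 2), miR-141-3p (1, 0 and 1) and miR-429 (0, 1 and 0) were too few to show a direction. The miR-449 miRNAs, used as markers of ciliated epithelium, summed to 40, 55 and 33 counts. The part of these markers in the miR-34c-5p result was not tested.

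Over the 3 libraries, the 5 measured miRNAs nearest miR-34c-5p, by Euclidean distance of the pair of log2 ratios to control among 230 others, were miR-708-5p, miR-4791, miR-5701, miR-7641 and miR-3065-5p. miR-708-5p had 26, 41 and 41 counts in the control, 3 min and 5 min libraries, with ratios to control of 1.72 at 3 min (1.03 to 2.93) and 2.66 at 5 min (1.59 to 4.52), at a distance of 0.0566. miR-4791 had 210, 383 and 386 counts, at a distance of 0.324, and the next 3 lay at 0.445 to 0.476. After 3 min the ratios of these 3 to control were 1.29 to 1.42, short of 1.5-fold, with intervals that include 1. After 5 min they were 2.05 to 2.87. The pattern of a higher level at both exposures was found for 12 of the 231 miRNAs at 1.5-fold.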

How the data were processed

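Small-RNA libraries were made from Trizol RNA with a NEBNext small-RNA kit, per the labels' protocols. The deposited values are raw read counts per mature miRNA, unnormalized. Bowtie2, bedtools and edgeR are named in the submitters' processing notes without version or role; genome build, annotation, trimming and multi-mapping rules are not stated in the labels, and reads carry no molecular identifiers.

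Comparisons across miRNAs used those averaging 20 or more counts per library. TMM (edgeR 4.0.16, R 4.3.3) was computed over those miRNAs with all libraries; ratios carry exact Clopper-Pearson 95% intervals, levels exact Poisson ones, and a 0 a limit of 3 counts, all for counting error only. A call was at least 2-fold. Tests of counts need replicates, so none was run. Code ran in Python 3.11.15 with scipy 1.17.1. Simulated counts with counting error only were used to check the ratios, so that check does not cover variation between replicate libraries. Alternatives were 5 other scalings (DESeq2 1.42.0 among them) and 2 count filters. Named were the members, miRNAs sharing the seed of a 5p member, and the 5 nearest miR-34c-5p; further markers were named after their values were seen. Some planned lists are not reported here. Members and lists were chosen with earlier results of these data known. Sequences are from RefSeq (GRCh38.p14), host genes from GENCODE 29 and RefSeq.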

Additional observations from a re-analysis of the deposited data

Results flagged for a closer look

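Some log2 ratios lay on opposite sides of 0 at the 2 exposures, each set against the same control library, and the difference between exposures was not tested. miR-34b-3p stood at -0.57 after 5 min and 0.97 after 3 min, on 2 and 9 counts against 5, with both intervals across 0. miR-449b-5p stood at -0.83 after 5 min and 0.71 after 3 min, on 2 and 9 counts against 6, again with both intervals across 0. For each of these scarce miRNAs the 5 min ratio to 3 min was 0.343 (0.0361 to 1.66). Of the melanocyte markers, miR-204-5p stood at -0.30 after 5 min and 0.09 after 3 min, and the summed markers at -0.30 and 0.07, with a 3 min interval across 0 (-0.008 to 0.15). Set directly against 3 min, the 5 min ratio was 0.766 (0.715 to 0.820) for miR-204-5p and 0.776 (0.725 to 0.829) for the summed markers, with counting error only.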

How the results depend on the processing

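Under the 5 other scalings, the ratios of miR-34c-5p, miR-34a-5p, the family sum and the MIR34B and MIR34C sum kept their direction in all 3 comparisons. For 5 min against 3 min, however, log2 intervals above 0 came to include it with DESeq2 size factors over all listed miRNAs, for miR-34c-5p (-0.019 to 0.84), the family sum (-0.094 to 0.66) and the MIR34B and MIR34C sum (-0.13 to 0.70), and with TMM over all listed miRNAs for the family sum (-0.071 to 0.69) and the MIR34B and MIR34C sum (-0.10 to 0.73). For 5 min against control, miR-34c-5p ranged from 2.22 to 2.59-fold, the family sum from 1.95 to 2.27-fold and miR-34a-5p from 1.54 to 1.80-fold; for 3 min against control miR-34c-5p ranged from 1.67 to 1.76-fold. The 5 min to 3 min log2 ratio of miR-449a ranged from -0.14 to 0.02 and so changed sign. Counts of miRNAs past 2-fold depended on the filter: requiring 1 count in both libraries gave 80 for 3 min against control, 147 for 5 min against control and 139 for 5 min against 3 min, and a mean of 50 counts gave 3, 16 and 5, against 7, 30 and 17. The number of miRNAs tested differs by construction. For 5 min against control, the split of 22 higher and 8 lower became 18 and 17 with DESeq2 size factors over all listed miRNAs and 18 and 16 with TMM over all listed miRNAs, where the median log2 ratio was -0.16 and -0.12 in place of 0.05. The 4 members below 20 counts had ratios whose intervals include 1, or no ratio. No paired analysis was possible because each group is 1 library.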
